A study of Mus musculus with 24 samples.

Results

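The genes described here are the splicing factors and heterogeneous nuclear ribonucleoproteins (hnRNPs) measured in alpha cells and beta cells of the mouse pancreas, which secrete glucagon and insulin. They were chosen by symbol alone: every gene whose symbol is Srsf, Sf3a, Sf3b or Rbm followed by a number (Rbm3 left out), every symbol that starts with Hnrnp, and Celf1 to Celf6, Rbfox1 to Rbfox3 and Elavl1 to Elavl4. This gave 85 of the 14027 entries in the table and 84 distinct symbols, since Rbm15b was listed under 2 identifiers. The members comprised 11 SR proteins, 18 hnRNPs, 8 subunits of SF3A and SF3B, 35 RBM proteins, 6 CELF proteins, 3 RBFOX proteins and 4 ELAVL proteins. All cells came from one strain, named a triple reporter mouse in the labels, which names neither the reporters, nor a treatment or age, for any group. Islets were isolated every 4 h from ZT0 to ZT20, where ZT is zeitgeber time, the hour of the light cycle. With 2 libraries per cell type at each of these 6 times, there were 12 libraries of alpha and 12 of beta cells.

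SR proteins bind exons of a precursor RNA through RNA recognition motifs and recruit the spliceosome through domains rich in arginine and serine, whose phosphorylation by CLK and SRPK kinases sets where they act. HnRNPs coat nascent RNA and often oppose exon inclusion, while SF3A and SF3B form the part of the U2 particle that holds the branch point. The CELF, RBFOX and ELAVL families and several RBM proteins act on subsets of exons or on mRNA stability, and many are best known from neurons or muscle.

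The libraries held 4944982 to 12364190 reads in the table. Alpha and beta markers followed the labels for 6 of 6 genes in each list. The markers of delta cells (5 of 5 measured) and of pancreatic polypeptide cells (3 of 3) were also higher in alpha libraries. The latter summed to 27826 to 59540 RPKM there, against 359 to 1730 RPKM in beta libraries. Whether this RNA came from such cells or from the alpha cells themselves was not tested. RPKM are reads scaled to gene length and library size. In bulk samples such as these, a lower share of cells of one type and less RNA in each such cell cannot be told apart. The replicates of ZT0, ZT4 and ZT8 stood apart from each other in both cell types, as described below with the counts that move without them. Of the members, 84 of 85 identifiers matched the GENCODE annotation, all as protein-coding genes. Exon bases were shared with a gene on the same strand for 13 members and with one on the other strand for 30. For the 13, reads on shared bases could not be separated from those of the partners by strand. For the 30 they could not be separated because the strand setting of the counting is not given in the sources used here.

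Upstream windows of the 5 members on which the comparisons below turn are shown first, because the series is about daily time and short sites for clock factors can be read from them: Rbm24 and Rbm11 for the difference between cell types, and Srsf1, Rbm11, Rbm4b and Hnrnpa3 for the daily course. The sequences are from RefSeq on build GRCm38.p6 and run 5′ to 3′ up to the gene's start, taken as the RefSeq start or, where GENCODE places it further upstream, the GENCODE start. All 5 genes lie on the plus strand. Capitals mark a match to 1 of 4 motifs searched on both strands: the E-box CACGTG, bound by CLOCK and BMAL1; the D-box, TTATGTAA or TTACGTAA, bound by PAR bZIP factors such as DBP; the half-site AGGTCA, bound by ROR and REV-ERB receptors; and the CRE TGACGTCA, bound by CREB. The Srsf1 window is chr11:88047123-88047372, that of Rbm11 is chr16:75592641-75592843, that of Rbm4b is chr19:4756275-4756496, that of Rbm24 is chr13:46418050-46418299, and that of Hnrnpa3 is chr2:75659009-75659258.
Srsf1: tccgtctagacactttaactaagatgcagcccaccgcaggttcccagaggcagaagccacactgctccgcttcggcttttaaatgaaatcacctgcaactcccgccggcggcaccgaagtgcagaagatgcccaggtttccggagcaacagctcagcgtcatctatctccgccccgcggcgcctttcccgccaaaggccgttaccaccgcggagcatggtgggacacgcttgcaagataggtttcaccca
Rbm11: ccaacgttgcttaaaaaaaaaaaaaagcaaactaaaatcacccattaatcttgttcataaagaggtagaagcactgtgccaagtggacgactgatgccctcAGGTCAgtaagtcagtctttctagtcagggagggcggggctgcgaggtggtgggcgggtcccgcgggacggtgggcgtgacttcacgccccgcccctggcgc
Rbm4b: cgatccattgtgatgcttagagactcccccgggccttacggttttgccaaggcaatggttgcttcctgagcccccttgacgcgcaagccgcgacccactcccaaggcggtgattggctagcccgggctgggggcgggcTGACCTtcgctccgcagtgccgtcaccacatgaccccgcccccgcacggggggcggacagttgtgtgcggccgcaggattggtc
Rbm24: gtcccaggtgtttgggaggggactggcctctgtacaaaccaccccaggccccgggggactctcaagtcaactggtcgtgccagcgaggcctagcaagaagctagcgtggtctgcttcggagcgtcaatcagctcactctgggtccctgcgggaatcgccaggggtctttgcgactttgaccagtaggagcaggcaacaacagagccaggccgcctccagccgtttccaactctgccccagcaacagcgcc
Hnrnpa3: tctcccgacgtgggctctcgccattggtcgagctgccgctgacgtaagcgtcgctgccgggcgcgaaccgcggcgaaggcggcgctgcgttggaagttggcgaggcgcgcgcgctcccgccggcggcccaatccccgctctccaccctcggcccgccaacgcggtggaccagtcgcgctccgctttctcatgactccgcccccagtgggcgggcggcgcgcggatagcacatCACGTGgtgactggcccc
The Hnrnpa3 window held an E-box that starts 18 bases before the RefSeq start. The Rbm11 window held an ROR half-site 149 bases before the RefSeq start and the Rbm4b window one 112 bases before, on the opposite strand as TGACCT. The Srsf1 and Rbm24 windows held none of the motifs. Among the 250 bases upstream of the start, 73 members had a window in the table. An E-box was present in 4 of them (5.48%), in Hnrnpd, Rbm19, Hnrnpa3 and Rbm15b, against 6.02% of all 32817 windows. The ROR half-site was present in 8 (11.0%) against 14.0%, the D-box in 1 (Hnrnpa2b1) against 0.929%, and the CRE in 1 (Celf6) against 1.55%. The members' shares were close to those of all windows or rested on a single gene. A match is a description of the letters and not a measured site.

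The first comparison asked which members differ between alpha and beta cells across all times. Most members were higher in alpha cells, by small amounts. By limma with the time as a factor and Benjamini-Hochberg adjustment over all genes, 55 members were higher in alpha cells (64.7%; 37.8% of all genes were) and 11 were higher in beta cells (12.9%; 37.2% of all genes), while 19 did not pass. The median difference, alpha minus beta, was 0.27 on the log2 scale over the members and 0.01 over all genes. In absolute size the members' median of 0.30 was below that of all genes, 0.42. Among genes with a mean of at least 1 RPKM, 63.6% of 77 members were higher in alpha cells against 34.9% of 12024 genes. The direction was the same at all 6 times for 49 members with more RNA in alpha cells (57.6%; 34.9% of all genes) and for 9 with more in beta cells (10.6%; 34% of all genes).

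Differences of at least 2-fold were found for 5 members higher in alpha cells, where 11.2% of all genes passed, and for none higher in beta cells, where 9.54% did. Separation of every alpha from every beta library was likewise uncommon: 8 members had all alpha libraries above all beta libraries (11.9% of all genes did) and 1 had the reverse (14.2% of all genes). The 8 were Rbm24, Rbm11, Elavl2, Rbfox1, Hnrnpa1, Rbm12, Rbm22 and Hnrnpr, and the 1 was Rbm17. The plot of the differences by family shows the shift of most members to the alpha side and the few that lie far out.

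**Figure D1:**
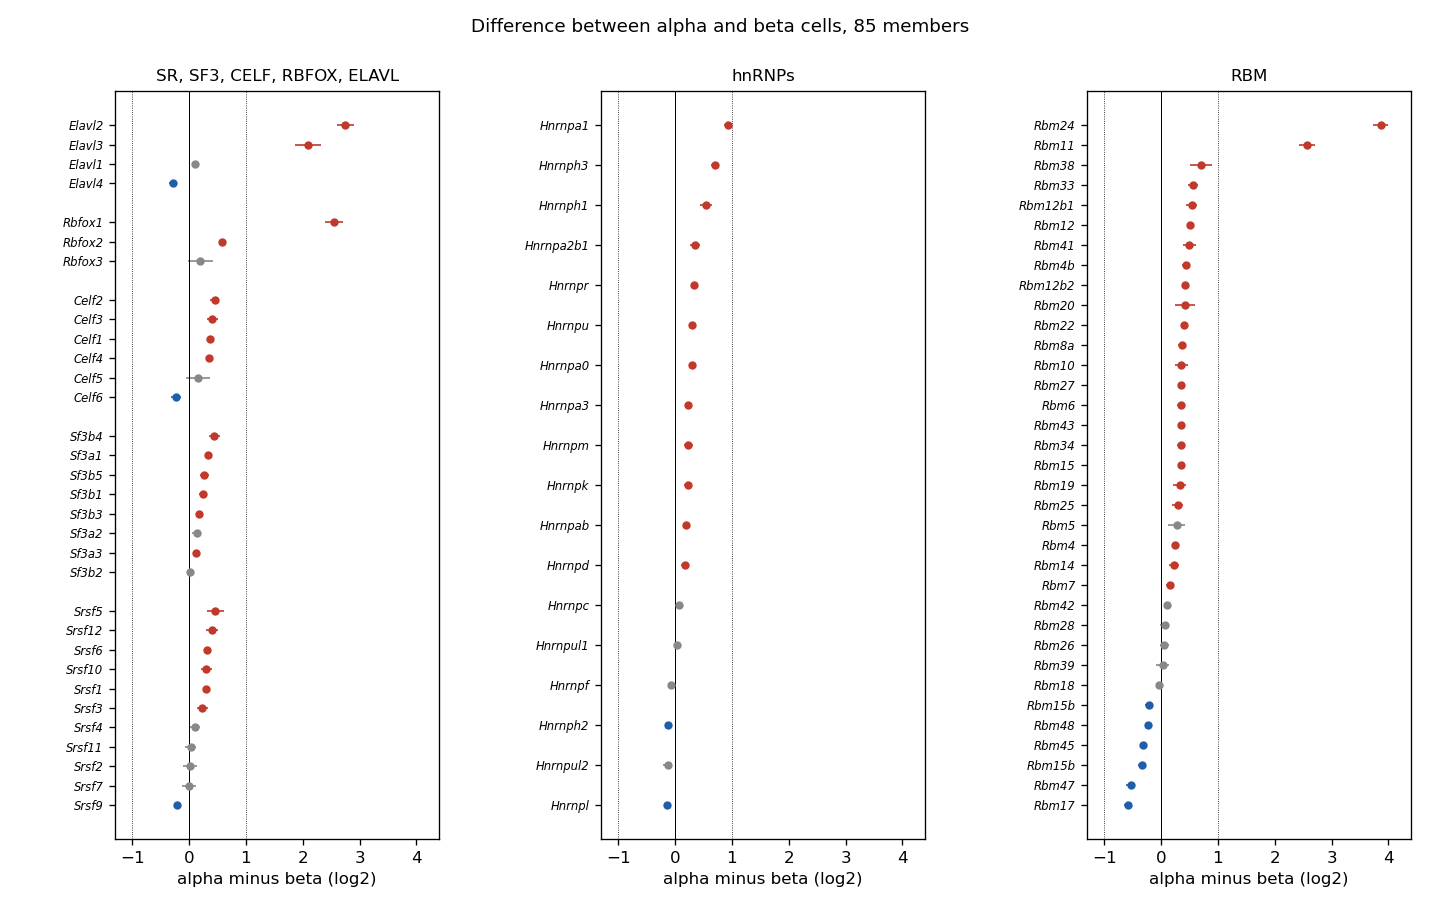
Difference between alpha and beta cells (horizontal axis, alpha minus beta on the log2 scale) for the 85 members by family, each point a member with its standard error from limma, red where higher in alpha cells, blue where higher in beta cells and grey where it did not pass, with dotted lines at 2-fold. Most points lie to the alpha side of 0, and Rbm24, Elavl2, Rbm11, Rbfox1 and Elavl3 lie past 2-fold.

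SR proteins were among the more abundant members, with a median of 27.0 RPKM over the 11, and 6 were higher in alpha cells, 1 in beta cells and 4 passed in neither direction. Srsf6, a general activator of exon inclusion, ranged from 53.7 to 64.5 RPKM in alpha libraries (median 59.1) and from 41.0 to 55.0 in beta libraries (median 47.7). The ranges overlapped only at the edge, and the difference was 0.32 ± 0.05 (log2, SE; adjusted p = 5.30e-06). Srsf5, the most abundant of the family, had 62.5 ± 15.1 RPKM in alpha cells against 45.8 ± 12.4 in beta cells (SD, n = 12) and differed by 0.46 ± 0.15 (adjusted p = 0.00915), with libraries that overlapped widely. Srsf12, the lowest of the family, had 1.84 ± 0.385 against 1.38 ± 0.287 RPKM. Srsf9 was the member of this family that was higher in beta cells, at 29.0 ± 1.87 against 25 ± 2.21 RPKM (log2 difference -0.21 ± 0.05, adjusted p = 0.000526). Srsf2, Srsf4, Srsf7 and Srsf11 did not pass, and Srsf7 had 37.4 ± 9.14 and 37.3 ± 8.43 RPKM.

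Of the 18 hnRNPs, 12 had more RNA in alpha cells, and Hnrnpl and Hnrnph2 had more in beta cells. The difference of Hnrnpl, -0.14, turned to 0.0707 under quantile normalization, and Hnrnph2 lost its call under 13 of 35 alternatives. Hnrnpa1, which packages nascent RNA and represses exons, showed the largest difference of the family. Its alpha libraries ranged from 18.5 to 35.5 RPKM (median 22.7) and its beta libraries from 9.54 to 17.8 RPKM (median 12.4). Every alpha library was above every beta library, with a difference of 0.93 ± 0.07 (log2, SE; adjusted p = 3.24e-11), or 1.91-fold. Near-identical pseudogenes of Hnrnpa1 exist, and how the authors assigned reads that fit several places is not given in the sources used here, so its level is uncertain. Hnrnph3 and Hnrnph1, which bind runs of G near splice sites, followed with 12 ± 1.64 against 7.39 ± 1.28 RPKM (0.70 ± 0.07, adjusted p = 8.11e-09) and with 55.5 ± 11.1 against 38.5 ± 8.56 RPKM (0.54 ± 0.10, adjusted p = 7.62e-05). The most abundant hnRNPs, Hnrnpa2b1, Hnrnpu and Hnrnpk, were higher in alpha cells by 0.35, 0.30 and 0.22 on the log2 scale. Hnrnpr differed little, at 27.1 ± 1.43 against 21.5 ± 1.64 RPKM, yet its libraries did not overlap.

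The SF3 subunits, which general splicing needs, had a smaller median difference than the SR proteins and hnRNPs. Sf3b2 was the most abundant member of all, at 73.5 ± 3.97 RPKM in alpha cells against 72.9 ± 6.70 in beta cells, a log2 difference of 0.02 ± 0.05 that did not pass (adjusted p = 0.787). Sf3b1, which contacts the branch point and is the target of splicing inhibitors, had 55.7 ± 5.49 against 47.6 ± 7.30 RPKM. In all, 6 of 8 subunits were higher in alpha cells and none was lower, with a median difference of 0.20. Sf3b4 differed most, at 3.35 ± 0.693 against 2.43 ± 0.511 RPKM (0.45 ± 0.10, adjusted p = 0.000589), followed by Sf3a1 at 11.7 ± 0.706 against 9.28 ± 0.963 RPKM.

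RBM proteins spanned the widest range of differences. Of the 35 entries, 23 were higher in alpha cells, 6 in beta cells and 6 did not pass. Rbm24, an RNA-binding protein best known for splicing in heart and skeletal muscle, ranged from 2.27 to 4.17 RPKM in alpha libraries (median 2.86) and from 0.0663 to 0.295 RPKM in beta libraries (median 0.153). This rests on 47 to 146 reads per alpha library and 2 to 10 reads per beta library, and no library of one type reached the other. The difference was 3.86 ± 0.14 on the log2 scale (adjusted p = 3.94e-17), the largest of all members. Rbm11, a splicing regulator described in brain and testis, had 2.14 to 6.63 RPKM in alpha libraries (median 3.96, 68 to 182 reads) and 0.288 to 1.26 RPKM in beta libraries (median 0.554, 7 to 36 reads). All alpha libraries were again higher, by 2.57 ± 0.14 (adjusted p = 7.92e-14). Rbm12 and Rbm22 also separated the cell types completely but at a smaller size, with 8.33 ± 0.549 against 5.84 ± 0.468 RPKM and 6.48 ± 0.351 against 4.88 ± 0.422 RPKM. Rbm12 shares exon bases with Cpne1 on the same strand, so its reads are uncertain.

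Rbm17, which takes part in the choice of 3′ splice sites, was the member with the largest difference towards beta cells. Its alpha libraries ranged from 9.52 to 15.1 RPKM (median 12.5) and its beta libraries from 15.5 to 22.0 RPKM (median 18.2). No alpha library reached the lowest beta library, and the log2 difference was -0.59 ± 0.06 (adjusted p = 1.05e-08). Rbm47, known from epithelial cells, had 12.1 ± 2.23 RPKM in beta cells against 8.29 ± 1.12 in alpha cells (-0.54 ± 0.08, adjusted p = 1.99e-06), with overlap. Rbm45 was higher in beta cells as well, at 13.1 ± 0.929 against 10.5 ± 0.851 RPKM. The 2 entries named Rbm15b moved the same way, by -0.34 and -0.22, but the second overlaps Manf and the first was not in the annotation used here. Rbm39 and Rbm5, the most abundant of the family with means of 43.9 and 34.9 RPKM over all libraries, did not pass.

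**Figure D2:**
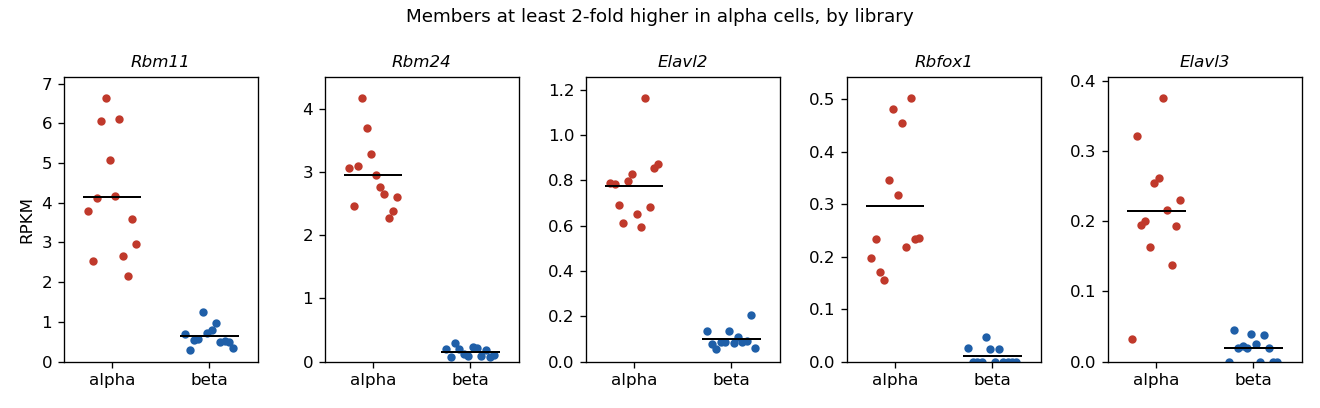
Level in RPKM (linear axes from 0) of the 5 members at least 2-fold higher in alpha cells, each point a library and each bar the mean of 12. For Rbm11, Rbm24, Elavl2 and Rbfox1 all alpha libraries lie above all beta libraries, and for Elavl3 the lowest alpha library lies among the beta libraries.

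The CELF proteins, which bind GU-rich sequence, included one of the most abundant members, Celf3, and several low ones. Celf3, a member of the family typical of neurons, had 60.1 ± 13.1 RPKM in alpha cells against 45.3 ± 10.8 in beta cells (0.41 ± 0.10, adjusted p = 0.000663), and its exons overlap those of Riiad1 on the other strand. Celf1 and Celf4 were higher in alpha cells by 0.37 and 0.34, at 21.1 ± 1.61 against 16.4 ± 1.51 RPKM and at 11.6 ± 0.731 against 9.19 ± 0.818 RPKM. Celf2 had 2.02 ± 0.384 against 1.45 ± 0.128 RPKM. Celf6 was the one family member higher in beta cells, at 6.03 ± 0.685 against 5.24 ± 1.26 RPKM (-0.23 ± 0.08, adjusted p = 0.0180). Celf5 had 0.187 ± 0.0623 and 0.166 ± 0.0659 RPKM and did not pass.

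Of the RBFOX proteins, which bind UGCAUG beside regulated exons, Rbfox2 was the expressed one. It ranged from 11.0 to 18.1 RPKM in alpha libraries (median 14.4) and from 8.18 to 11.9 RPKM in beta libraries (median 9.52), with slight overlap and a difference of 0.58 ± 0.05 (adjusted p = 1.78e-10). Rbfox1, the form of neurons and muscle, had 0.155 to 0.502 RPKM in alpha libraries, from 7 to 25 reads each, and 0 to 0.0464 RPKM in beta libraries. In beta cells 8 of 12 libraries had no read and all 12 together had 5. The fitted difference of 2.55 ± 0.16 (adjusted p = 8.37e-13) includes a prior count that shrinks it. Rbfox3, the neuronal antigen NeuN, had 0.179 ± 0.108 and 0.141 ± 0.0568 RPKM and did not pass (adjusted p = 0.423).

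The ELAVL proteins stabilise mRNAs with AU-rich ends, Elavl1 (HuR) in all cells and the other 3 mainly in neurons. Elavl1 was at 14.2 ± 1.62 RPKM in alpha cells against 13.1 ± 1.64 in beta cells, which just missed the threshold (0.11 ± 0.05, adjusted p = 0.0516). Elavl2 ranged from 0.596 to 1.16 RPKM in alpha libraries (28 to 114 reads) and from 0.0534 to 0.204 RPKM in beta libraries (5 to 17 reads). The ranges were separate, with a difference of 2.75 ± 0.15 (adjusted p = 1.37e-13). Elavl3 had 2 to 20 reads per alpha library and 0 to 2 per beta library, ranges that met, and differed by 2.09 ± 0.23 (adjusted p = 3.13e-08). Elavl4 went the other way, at 8.43 ± 1.21 RPKM in beta cells against 6.89 ± 0.897 in alpha cells (-0.29 ± 0.06, adjusted p = 0.000293). Thus Elavl2 and Elavl3 were higher in alpha cells while Elavl4, which was far more abundant per length than either, was higher in beta cells.

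The 5 members past 2-fold all had a mean below 5 RPKM in alpha cells, and the size of their difference depends on the treatment of low values. With log2(RPKM + 1) only Rbm24 and Rbm11 stayed past 2-fold. A filter that kept genes whose mean log2 value was above 0 removed Rbm24, Elavl2, Elavl3 and Rbfox1 from the test. Rbm11 was kept and stayed past 2-fold. Markers of several other cell types, though not of all, moved with the same contrast. Summed stromal markers were 4.30 to 9.14 RPKM in alpha and 0.517 to 1.65 RPKM in beta libraries (5 of 6 higher in alpha cells), summed glial markers 0.852 to 3.87 and 0.171 to 0.894 RPKM (2 of 2 measured), summed delta markers 2513 to 5180 and 645 to 1421 RPKM, and summed duct markers 25.6 to 78.6 and 5.03 to 19.2 RPKM (2 of 2 measured). Summed endothelial markers were 3.87 to 7.42 and 2.15 to 4.03 RPKM (2 of 4 measured higher in alpha cells). Immediate early genes, which respond to stimulation and handling, summed to 337 to 2465 RPKM in alpha and 171 to 956 RPKM in beta libraries, and 9 of 10 were higher in alpha cells. The part of these cells and genes in the higher Rbm24, Rbm11, Elavl2, Elavl3 and Rbfox1 of alpha libraries was not tested. Neuronal markers lay the other way, at 16.5 to 26.8 RPKM in alpha and 48.2 to 73.1 RPKM in beta libraries for Snap25, Th and Tubb3 together, of which 2 passed as higher in beta cells.

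Other genes of the splicing pathway, in lists of their own, had medians of the same sign. Of all genes, 37.8% were called higher in alpha and 37.2% higher in beta cells. Whether a list differs from these shares was not tested. Of 21 measured tissue regulators of splicing outside the members, 15 were higher in alpha cells and 3 lower, with a median difference of 0.31. Mbnl2, a muscleblind protein, had 75.1 ± 7.34 RPKM in alpha cells against 35.7 ± 3.23 in beta cells, and Ptbp2, the neuronal form of the polypyrimidine tract protein, had 10.4 ± 1.60 and 4.93 ± 1.09 RPKM. Of 31 genes of the spliceosome core outside SF3, 16 were higher in alpha cells and 5 lower (median 0.17). Of 9 kinases of SR proteins, 5 were higher in alpha cells, whereas 2 favoured beta cells (median 0.23). Clk1 had 24.7 ± 6.99 against 13.9 ± 4.02 RPKM, whereas Srpk2 was higher in beta cells at 26.1 ± 1.40 against 18.1 ± 1.39 RPKM. Of 10 genes of nonsense-mediated decay, which degrades transcripts that SR genes make with premature stops, 6 were higher in alpha cells and 1 lower (median 0.17). Of 20 further nuclear RNA-binding proteins, 11 were higher in alpha cells (median 0.24) and 1 was lower, namely the poly(C)-binding protein Pcbp3 at 15.1 ± 1.23 against 6.01 ± 0.507 RPKM.

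The second comparison asked which members follow a daily rhythm, fitted as a 24 h cosine with the F-test of its terms in limma, adjusted over all genes. A rhythm was called for 8 members in alpha cells (9.66% of all genes were called), for 17 in beta cells (16% of all genes) and for 40 in the average of both cell types (47.1% of members; 39% of all genes). The shares of members were close to those of all genes in each test. Srsf1, Rbm26, Rbm11 and Hnrnpa0 were called in both cell types. The range between peak and trough over the 40 was 1.13-fold to 2.12-fold, with a median of 1.39-fold against 1.44-fold over all called genes.

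These counts depended on few libraries. They also take same-numbered alpha and beta libraries as independent, and the last section gives the counts with a replicate block. Without replicate 1 of ZT8, alpha cells had 0 called members, and without replicate 1 of ZT4 they had 17. Without replicate 1 or 2 of ZT16, alpha cells had 2 and 1, and without replicate 1 of ZT20 they had 3. Leaving out replicate 2 of ZT8, replicate 2 of ZT4 or replicate 2 of ZT12 gave 3, 4 and 4. In beta cells the count was 8 without replicate 1 of ZT8, replicate 1 or 2 of ZT16 or replicate 2 of ZT20, and 10 without replicate 2 of ZT4 or of ZT12. Rhythm counts over all genes were not made without single libraries, so this dependence is not shown to be particular to the members. With the sets of libraries described below left out, the counts over all genes moved in the same direction as those of the members. Of the 40 members called on average, 13 were called under every alternative run: Celf1, Hnrnpa0, Hnrnpa1, Hnrnpc, Hnrnpk, Rbfox2, Rbm11, Rbm12b2, Rbm14, Rbm26, Rbm4b, Srsf1 and Srsf11.

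Peak times of the 40, called with same-numbered alpha and beta libraries taken as independent, fell mostly late in the cycle. The peak windows were not counted with a replicate block. Between ZT16 and ZT20 lay 26 members, a class that held 14.1% of all genes tested, and between ZT4 and ZT12 lay 11, a class that held 18%. As a share of the called, 65.0% of members against 36.1% of the 5475 called genes peaked between ZT16 and ZT20. Between ZT4 and ZT8 lay 7.50% of members against 35.5% of called genes, and between ZT8 and ZT12 lay 20% against 10.7%. The members were thus more often late than the called genes as a whole in these counts, a difference that was not tested. It was smaller without 6 libraries named below that had lower Clk1, where 7 of 18 called members (38.9%) peaked between ZT16 and ZT20 against 26.1% of called genes. Without the 6 that had higher Clk1 the window held 31 of 54 members (57.4%) against 31.3% of called genes.

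**Figure D3:**
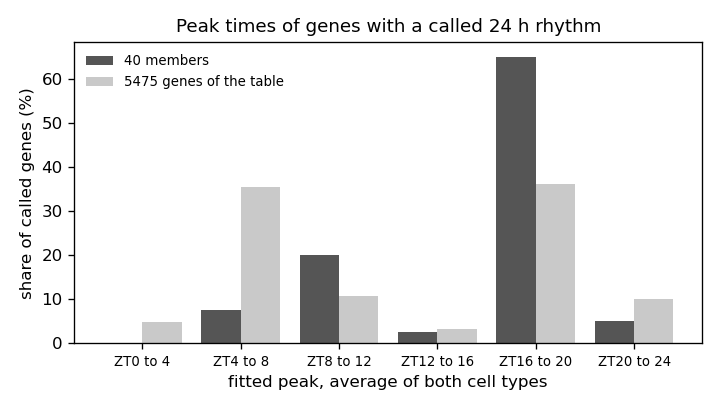
Share in percent (bars from 0) of the 40 members and of the 5475 genes called rhythmic on average whose fitted peak lies in each window of zeitgeber time. The bar of the members is tallest between ZT16 and ZT20, at 65.0% against 36.1%, and shorter than that of all called genes between ZT4 and ZT8.

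Srsf1, the founding SR protein and a regulator of its own mRNA, had the lowest p of the average. In alpha cells its 2 libraries had 43.0 and 42.2 RPKM at ZT0, 37.7 and 30.3 at ZT4, 24.7 and 32.0 at ZT8, 36.4 and 33.8 at ZT12, 39.9 and 41.1 at ZT16 and 38.4 and 43.6 at ZT20. In beta cells they had 32.9 and 30.8 RPKM at ZT0, 26.9 and 24.0 at ZT4, 23.0 and 27.0 at ZT8, 28.3 and 25.9 at ZT12, 36.0 and 36.1 at ZT16 and 33.0 and 34.5 at ZT20. Both cell types were low at ZT4 and ZT8 and high from ZT16 on. The fitted peak (± SE) was at ZT20.1 ± 0.788 h in alpha cells (1.45-fold, adjusted p = 0.0129) and at ZT18.9 ± 0.761 h in beta cells (1.47-fold, adjusted p = 0.00666). Rbm26, a zinc finger protein that works with the nuclear RNA exosome, followed the same course with a wider range. Its libraries at ZT8 had 6.72 and 7.89 RPKM in alpha and 7.09 and 7.94 in beta cells, and those at ZT16 had 13.8 and 13.5 in alpha and 13.9 and 13.6 in beta cells, with a fit of 1.72-fold and 1.73-fold (adjusted p = 0.0208 and 0.0138). The levels of the cell types were near each other at each time. Its ZT0 and ZT4 replicates differed, however, with 8.30 and 12 RPKM at ZT0 and 11.0 and 7.23 RPKM at ZT4 in alpha cells.

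Rbm11 and Hnrnpa0 peaked in the other window. Rbm11 had 6.63 and 5.09 RPKM at ZT8 and 2.66 and 2.14 RPKM at ZT16 in alpha cells, and 1.26 and 0.716 RPKM at ZT8 and 0.485 and 0.505 RPKM at ZT16 in beta cells. Both cell types were thus higher at ZT8 than at ZT16, at very different levels, and the fitted range was 2.21-fold with a peak at ZT7.32 ± 0.943 h in alpha cells and 2.16-fold with a peak at ZT9.44 ± 0.968 h in beta cells (adjusted p = 0.0342 and 0.0280). Hnrnpa0, an hnRNP that binds AU-rich mRNA, had 36.7 and 33.9 RPKM at ZT8 against 25.7 and 30.4 at ZT16 in alpha cells, and 27.9 and 28.4 against 22.0 and 23.1 in beta cells. Its range was small, 1.27-fold and 1.26-fold, with a peak at ZT8.80 ± 0.983 h and ZT8.23 ± 1.01 h. Hnrnpa1 and Hnrnpk were called on average with peaks at ZT10.1 ± 0.809 h (1.51-fold, adjusted p = 0.00391) and ZT6.93 ± 0.797 h (1.44-fold, adjusted p = 0.00353).

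Other members peaked late. Rbm14, a coactivator with RNA recognition motifs, reached 1.73-fold on average with a peak at ZT19.6 ± 0.733 h (adjusted p = 0.00193), and the SR protein Srsf11 1.62-fold at ZT17.8 ± 0.792 h (adjusted p = 0.00337). Of the SR family 6 members were called on average, and each of them peaked between ZT16 and ZT20. Srsf2, Srsf3, Srsf7 and Srsf10 lost this call under 11, 6, 3 and 2 of 36 alternatives. Of the hnRNPs 10 were called, 5 with a peak between ZT16 and ZT20 and 4 between ZT4 and ZT12. Rbfox3 was called in alpha cells with 2.99-fold (adjusted p = 0.0399), on 3 to 31 reads per library.

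**Figure D4:**
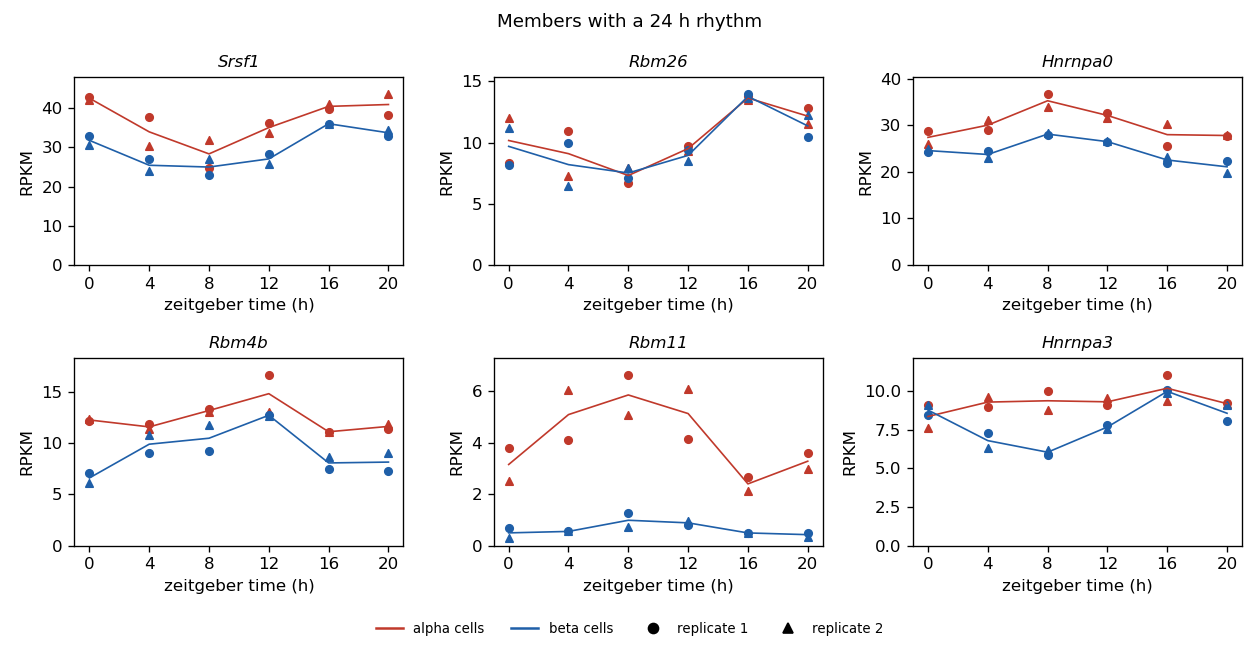
Level in RPKM (linear axes from 0) against zeitgeber time in hours for 6 members with rhythms, alpha cells in red and beta cells in blue, each circle or triangle replicate 1 or 2 and the lines the means of 2 libraries. Srsf1 and Rbm26 are low at ZT8 and high from ZT16 on, whereas Rbm11 is higher at ZT8 than at ZT16 in both cell types.

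The third comparison asked whether the rhythm differs between the cell types. No member passed the F-test of the difference in limma, where 10 of all genes (0.0713%) did, and 7 members (8.24%) had an unadjusted p under 0.05, close to the 7.66% of all genes that did. The lowest adjusted p was that of Hnrnpa3, a packaging hnRNP (0.267), whose result with a replicate block is given in the last section. Like Hnrnpa1, it has near-identical pseudogenes. Its beta libraries had 5.88 and 6.19 RPKM at ZT8 and 10.1 and 9.87 at ZT16, and its alpha libraries 9.97 and 8.75 at ZT8 and 11.0 and 9.31 at ZT16. The beta libraries thus differed between these times while the alpha ranges overlapped. The fitted range was 1.53-fold in beta cells (adjusted p = 0.00306) and 1.12-fold in alpha cells (adjusted p = 0.511). Next in order were Elavl4, Rbm20, Hnrnpul1 and Celf6, with adjusted p of 0.439, 0.460, 0.477 and 0.557. Rbm4b, a paralog of the LARK protein Rbm4 that has been linked to clock gene translation, was called in beta cells (1.68-fold, peak at ZT10.0 ± 0.757 h, adjusted p = 0.00632) and not in alpha cells (1.19-fold, adjusted p = 0.424). Its beta libraries rose from 7.09 and 6.14 RPKM at ZT0 to 12.8 and 12.7 at ZT12, and its alpha libraries had 12.2 and 12.4 at ZT0 and 16.7 and 13.0 at ZT12. A rhythm that differs between the cell types was not shown for it (adjusted p = 0.743 for the difference).

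The replicates of several members differed strongly at the first 3 times. Srsf5 had 39.6 and 77.7 RPKM in replicates 1 and 2 of ZT0 in alpha cells and 30.1 and 58.3 RPKM in beta cells. At ZT4 the order turned, with 76.6 and 41.0 RPKM in alpha and 61.1 and 24.4 RPKM in beta cells, and at ZT8 it was 40.9 and 59.3 RPKM in alpha and 32.7 and 47.5 RPKM in beta cells. The same replicate was high in both cell types at each of these times, whereas at ZT12 and ZT16 the replicates of Srsf5 lay within 0.05 of each other on the log2 scale. At ZT20 the beta replicates also differed, by -0.64 for Srsf5, -0.52 for Srsf2, -0.56 for Srsf7 and -0.60 for Rbm5 (replicate 1 minus replicate 2, log2). Rbm5, a splicing regulator that acts on apoptosis genes, had 28.1 and 50.7 RPKM at ZT0, 43.8 and 21.2 at ZT4 and 16.6 and 29.3 at ZT8 in alpha cells, in the order of Srsf5. Srsf2 had 28.3 and 12.3 RPKM at ZT4 in beta cells. Srsf6 shared the order with small differences, at most 0.38 on the log2 scale.

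**Figure D5:**
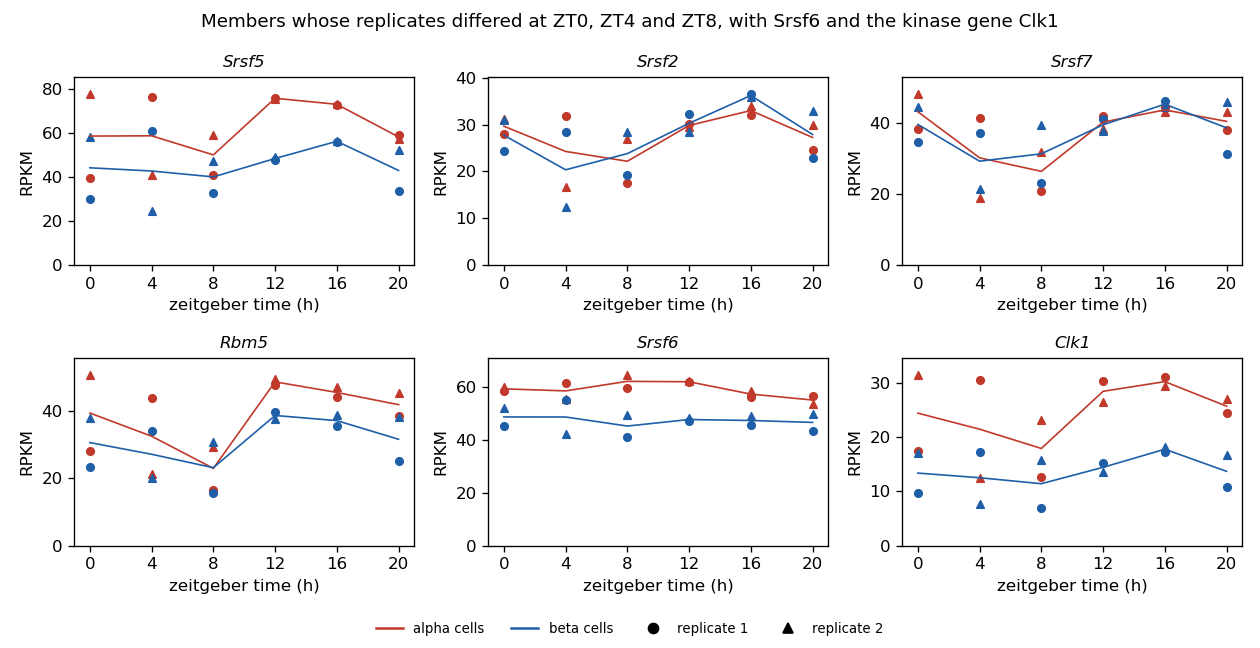
Level in RPKM (linear axes from 0) against zeitgeber time in hours for 5 members and the kinase gene Clk1, alpha cells in red and beta cells in blue, circles replicate 1, triangles replicate 2 and lines the means. For Srsf5, Srsf2, Srsf7, Rbm5 and Clk1 the replicates stand apart at ZT0, ZT4 and ZT8, in the same order in both cell types. They lie close at ZT12 and ZT16 and stand apart again at ZT20 in beta cells. The replicates of Srsf6 differ little.

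The kinase gene Clk1, whose protein phosphorylates SR proteins, differed the same way, by -0.85, 1.29 and -0.88 (replicate 1 minus replicate 2, log2) at ZT0, ZT4 and ZT8 in alpha cells and by -0.82, 1.15 and -1.17 in beta cells. The immediate early gene Fos differed by -0.45, 1.52 and -2.68 in alpha cells, against -0.54, 0.98 and -2.75 in beta cells. Malat1, a long noncoding RNA that stays in the nucleus, differed by -0.84, 0.57 and -0.41 in alpha cells, against -1.29, 1.35 and -0.66 in beta cells. The signs of Clk1, Fos and Malat1 were the same in all 6 pairs. Of 77 members with at least 1 RPKM, 26 (33.8%) had the sign of Clk1 in all 6 of these pairs, against 12% of the 12024 genes at that level, and 7 (9.09%) had the opposite sign in all 6, against 15.5%. The 26 included 5 SR proteins, 6 hnRNPs and 13 RBM proteins, and Rbm11 was among the 7. The part of RNA quality, nuclear RNA or stimulation in these differences was not tested. The deviation within groups had a median SD of 0.26 on the log2 scale for SR proteins, 0.18 for all members and 0.21 for all genes. Of the 77 members, 2 were at or above the 90th percentile of this SD among the 12024 genes, and 15 at or above the 75th.

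The rhythm counts moved with these libraries. Without replicate 2 of ZT0, replicate 1 of ZT4 and replicate 2 of ZT8 in both cell types, which had the higher Clk1 and Srsf5, rhythms were called for 34 members in alpha cells, 39 in beta cells and 54 on average (40%, 45.9% and 63.5% of members, against 30.3%, 38.3% and 54% of all genes). Without the other replicate of each of these times, they were called for 1, 5 and 18 members (1.18%, 5.88% and 21.2%, against 2.17%, 6.66% and 23% of all genes). The counts over all genes thus moved in the same direction as those of the members. The numbers of members higher in alpha cells were 56 and 52 under these choices, which were made after seeing the data, and the number higher in beta cells was 11 in both.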

How the data were processed

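Total RNA was purified with a Qiagen micro column kit and made into stranded libraries depleted of ribosomal RNA, per the labels' protocols. For the processing, STAR, edgeR and mm10 are named without versions, per the submitters' processing notes. Neither annotation, strand setting nor gene filter is given in these sources. Values in the deposited table are log2, and their steps identify them as log2 RPKM with a prior count (mean 2.0 over libraries). Whole reads could be recovered from these steps for all 14027 genes (largest deviation from a whole number 8.1e-08), which gave RPKM without the prior, and means ± SD over the 12 libraries of a cell type include time of day. The plan allowed for linear values; the log2 values were tested as deposited.

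Tests used limma 3.58.1 in R 4.3.3 (trend, robust) over all 14027 genes, with Benjamini-Hochberg adjustment and a threshold of 0.05. Cell types were compared with time as a factor of 6 levels, and rhythms were fitted as 24 h cosines per cell type in one model. Nothing in the labels says that replicates stem from separate animals, and the p-values cover the spread between libraries alone, and this may be technical. The scripts were tested on simulated data with independent libraries, which does not cover the shared replicate differences seen here. Alternatives changed the pseudocount, filter, scaling, weights, model and libraries used.

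The members and lists were chosen with earlier results of these data known. The naming rule took members past 2-fold; per family the 3 most abundant and the 3 with the largest difference at 1 RPKM or more; all CELF, RBFOX and ELAVL genes; up to 8 rhythmic members of lowest p per test; the 5 lowest p for a difference of rhythm; and up to 3 genes of each other list. Other members named, among them those with separate libraries, those higher in beta cells and those whose replicates differed, were chosen after their values were seen. Positions are those of GENCODE M21 and RefSeq on GRCm38.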

Additional observations from a re-analysis of the deposited data

How the results depend on the processing

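The counts of members with more RNA in alpha (55) or in beta cells (11) stayed within 1.5 times under all 35 alternatives. They were 51 to 55 and 10 to 11 when single libraries were left out. Of the 66 called members, 54 kept their call and direction under every alternative that tested them. The log2 difference of Hnrnpl, -0.14, turned to 0.0707 under quantile normalization (adjusted p = 0.366 by limma). The 5 members past 2-fold became 2 with log2(RPKM + 1) and stayed 5 whichever library was left out. With the filter on the mean log2 value 1 was counted, because the filter removed the others from the test. The 8 rhythms in alpha cells became 13 under quantile normalization, 4 with time as 6 levels, and 0 to 17 when single libraries were left out. The 17 in beta cells became 11 with median centring, 7 with time as 6 levels, 5 with that cell type fitted alone, and 8 to 22 without single libraries. The 40 on average became 23 with time as 6 levels and 27 to 44 without single libraries. Leaving out the replicates of ZT0, ZT4 and ZT8 with higher Clk1, chosen after seeing the data, gave 34 in alpha cells, 39 in beta cells and 54 on average. Leaving out those with lower Clk1 gave 1 in alpha cells, 5 in beta cells and 18 on average. The cause was not tested. The replicate numbers were not taken as pairing the samples. From ZT0 to ZT20, same-numbered alpha and beta libraries correlated in their deviations at 0.70, 0.52, 0.45, 0.15, 0.15 and 0.02. These correlations were above 0.1 at 5 of 6 times and above 0 at all 6. The tests in the Results counted such libraries as independent. With the replicate block, 23 members were called on average and 1, Hnrnpa3, for a difference of rhythm (0 without the block, also when single libraries were left out). Rhythm counts over all genes were not made with the block or without single libraries, so these counts of members have no share beside them. Depth limits Rbfox1, Rbfox3, Elavl3 and Celf5, which had few reads in every library.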
